A study of Drosophila melanogaster with 10 samples.

Results

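The genes that carry the DNA damage response of Drosophila melanogaster, from the sensing kinases to the joining of broken ends and the start of apoptosis, were followed in sorted S2 cells. The 10 listed genes were mei-41, tefu, grp, lok, p53, mre11, Irbp, Ku80, Dronc and rpr. Every probe set annotated to 1 of these genes and to no other was taken. This gave 12 probe sets for 9 genes, of 18769 probe sets tested in all. The platform annotation used here gave rpr no probe set of its own, so rpr was not analysed. S2 is an embryonic Drosophila line with haemocyte-like properties. Stable lines had been treated with copper sulfate to switch on depletion of SLIMP, an insect paralogue of seryl-tRNA synthetase that works in mitochondria, and live cells were sorted by DNA content into G1 and G2/M. The labels gave 3 arrays of G1 control, 3 of G2/M control, 2 of G1 SLIMP knockdown and 2 of G2/M SLIMP knockdown cells, and called the control genotype WT. Whether control cells also received copper, and how many clones each line holds, is not given in the sources used here. RNA came from 25000 cells per sample and the cDNA was amplified for 15 cycles. A culture below means the G1 and the G2/M array that share a genotype label and a replicate number, which gives cultures control 1, 2 and 3 and knockdown 2 and 3. Nothing in the labels says whether these numbers stand for separate cultures of cells, so the p-values rest on differences between arrays that may be technical in origin.

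When DNA breaks or a replication fork stalls, the large kinases ATM and ATR sense the damage and pass the signal to the smaller kinases Chk1 and Chk2. These stop the cell cycle, mostly at entry into mitosis in Drosophila cells, and Chk2 also acts on the transcription factor p53, which in the fly mainly switches on cell death genes. In the fly, mei-41 encodes ATR, tefu ATM, grp Chk1 and lok Chk2. The broken end itself is bound either by the complex of Mre11, Rad50 and Nbs, which starts trimming it, or by the Ku heterodimer, which holds it for direct end joining by DNA ligase 4. Irbp and Ku80 encode the subunits of Ku. Reaper, the product of rpr, blocks the inhibitor Diap1 and so frees Dronc, the initiator caspase of fly apoptosis.

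The label check and the sort check came out differently. Slimp, the gene targeted by the knockdown, read between 12.51 and 12.59 (log2) in the 4 libraries labelled control 3 and knockdown 2 and between 8.68 and 9.06 in the other 6, so it did not follow the genotype labels. Which libraries hold depleted cells cannot be told from these values: whether labels were exchanged was not tested, and whether this probe set also reads the knockdown construct was not analysed here. The labels are therefore used as names of libraries, and the counts and calls are also given without the cultures control 3 and knockdown 2. The sort was clear in all 5 cultures. The mitotic kinesin gene ncd was 1.82 to 2.34 higher in G2/M than in G1 of the same culture, and the mitotic cyclin gene CycB3 was 1.01 to 1.47 higher. CycB gave smaller differences in control 3 (0.12) and knockdown 2 (0.30) than in the other cultures (0.67 to 0.79). The 10 haemocyte markers all had mean signals of 7.68 to 13.23, above the array medians of 6.55 to 6.61. Their mean level, taken on the linear scale and then as log2, was 11.09 to 11.54 over the arrays. That of 10 measured markers of neurons, germline, ovary, muscle and fat body was 7.98 to 8.31. Of these 10, the neuronal genes elav (10.26), brp (8.86) and nSyb (7.15) and the germline genes bam (8.83) and osk (8.44) were above the medians. The other 5 had means of 4.08 (the fat body gene Lsp2) to 5.96 (the somatic gonad gene tj).

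**Figure D1:**
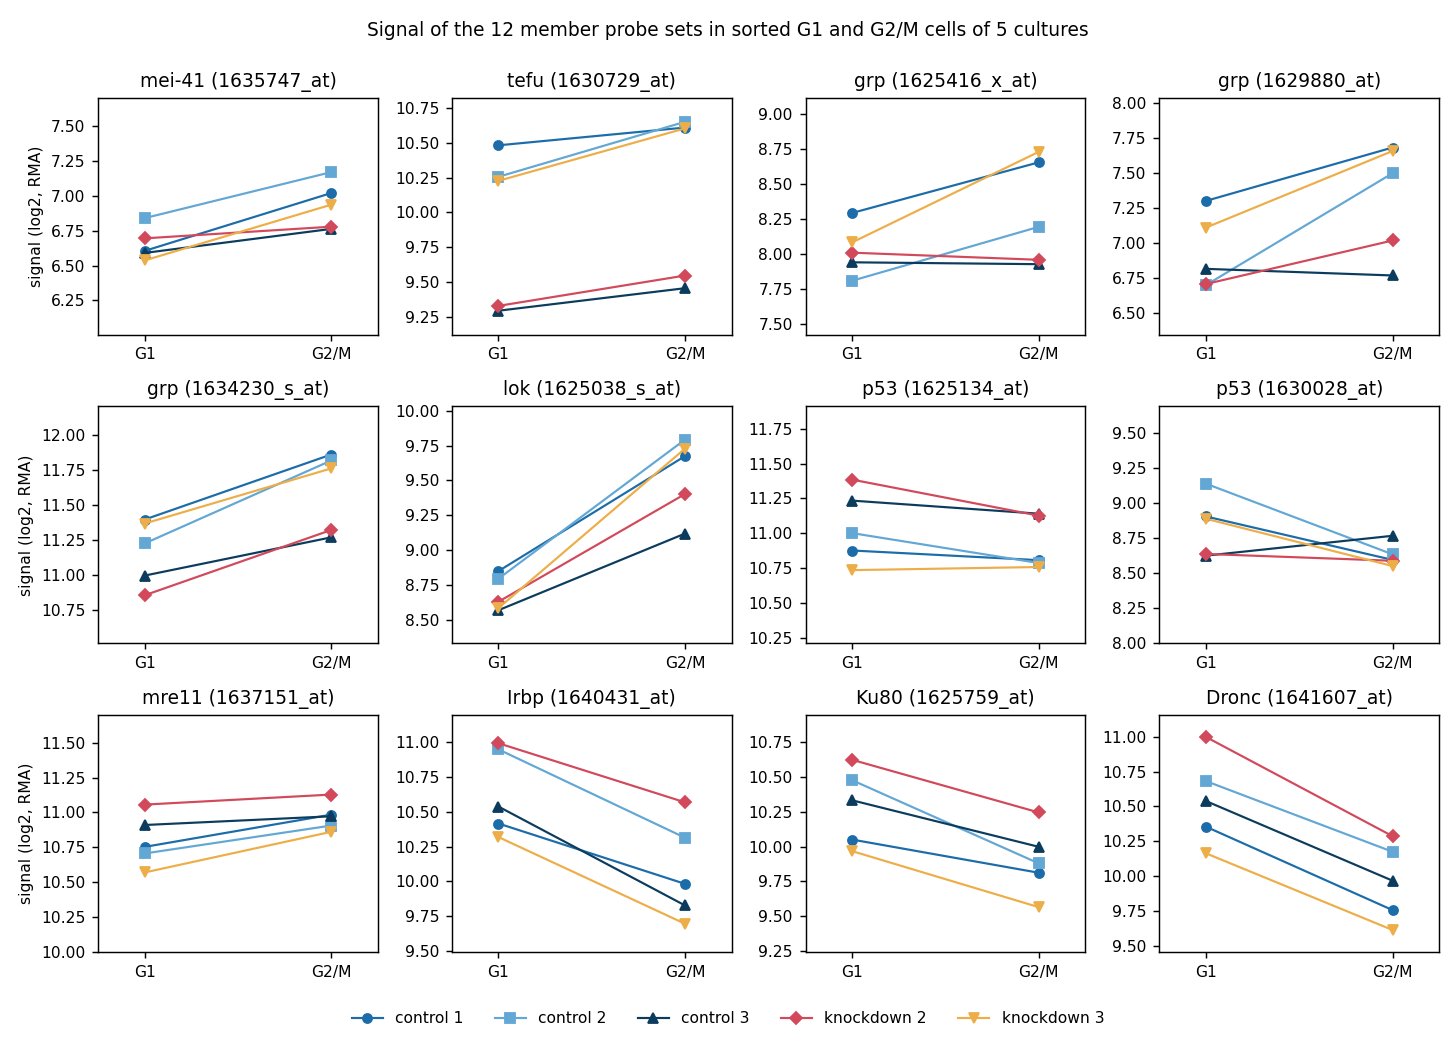
Signal (log2, RMA) of the 12 member probe sets, 1 panel each with its own range of equal width, in G1 and in G2/M. Each line joins the 2 arrays of a culture, so there are 10 arrays in each panel. All 5 lines rise for lok, mei-41, tefu, mre11 and the s_at probe set of grp, and all 5 fall for Irbp, Ku80 and Dronc. For tefu the lines of control 3 and knockdown 2 lie about 1 log2 unit under the others.

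The first comparison asked how each gene differed between G2/M and G1 within cultures. The kinase genes were higher in G2/M, with lok, the Chk2 gene, rising 1.81-fold. The Ku subunit genes Irbp and Ku80 and the caspase gene Dronc were lower, by 0.56, 0.39 and 0.59 on the log2 scale. Over the 5 cultures, 5 of the 12 probe sets (4 genes: lok, grp, mei-41, tefu) passed an adjusted p of 0.05 as higher in G2/M, where 10.3% of all probe sets did. Another 3 (Irbp, Ku80, Dronc) passed as lower, where 9.00% of all did. The median over the 12 probe sets was 0.21, against 0.00 over all probe sets. With dim probe sets (mean log2 under 5) left out, 9 of the 12 and 3894 of 14627 probe sets passed in either direction. The test was limma's moderated test with culture as a block, fitted to all probe sets and adjusted by Benjamini-Hochberg. Each SE of a difference is from such a fit, which draws in part on the spread of all probe sets. In sorted bulk cells, fewer cells that express a gene and less RNA per cell cannot be told apart. Because RMA sets every array to the same distribution of probe intensities, a difference in total RNA per cell between the phases is not visible.

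Of the kinases, lok changed most. Its only probe set has the s_at suffix, which marks probes shared by several transcripts. In G1, lok read 8.85, 8.80 and 8.57 in the libraries labelled control 1, 2 and 3 and 8.63 and 8.59 in those labelled knockdown 2 and 3. In G2/M it read 9.67, 9.79, 9.12, 9.40 and 9.73 in the same order. Every G2/M array was above every G1 array. No other member had phases that did not overlap, and 9.36% of all probe sets had this in either direction. The rise was 0.86 ± 0.08 (SE, n = 5 cultures; adjusted p = 0.000467 in limma), and it ranged from 0.55 in control 3 to 1.14 in knockdown 3. It was the 147th smallest p of 18769.

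The gene grp, which encodes Chk1, has 3 probe sets. The one with the s_at suffix, as for lok, read 11.40, 11.23, 11.00, 10.85 and 11.37 in G1 (control 1, 2, 3, knockdown 2, 3). In G2/M it read 11.86, 11.82, 11.27, 11.32 and 11.76. It rose in all 5 cultures although the arrays of the phases overlapped, because control 3 and knockdown 2 were lower in both phases. The difference was 0.44 ± 0.06 (SE, n = 5; adjusted p = 0.0017 in limma). Probe set 1629880_at rose by 0.40 ± 0.11 (SE; adjusted p = 0.0299 in limma), in 4 of 5 cultures, with -0.05 in control 3. This call was lost when any 1 of control 1, control 2, knockdown 2 or knockdown 3 was left out (adjusted p from 0.0655 to 0.0966). Probe set 1625416_x_at, whose suffix marks possible cross-hybridisation, gave 0.27 ± 0.10 (SE; adjusted p = 0.106 in limma). Here control 3 and knockdown 2 read -0.01 and -0.05 and the other 3 cultures 0.36 to 0.65, and without those 2 cultures the probe set passed, at 0.47 (adjusted p = 0.0143).

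The rises of the ATR and ATM genes were smaller. The mei-41 probe set read 6.61, 6.84, 6.59, 6.70 and 6.54 in G1 and 7.02, 7.17, 6.76, 6.78 and 6.94 in G2/M, in the order of cultures used above. These values lie close to the array medians, and only the G2/M arrays of control 3 and knockdown 2 fell within the range of the G1 arrays. The gene rose by 0.28 ± 0.06 (SE, n = 5; adjusted p = 0.0168 in limma), in 5 of 5 cultures. For tefu the G1 readings were 10.48, 10.26, 9.30, 9.33 and 10.23, and the G2/M readings 10.61, 10.65, 9.46, 9.55 and 10.60. Its rise of 0.26 ± 0.06 (SE; adjusted p = 0.0182 in limma) was seen in 5 of 5 cultures and was small beside the gap between cultures described below. The mei-41 call was lost without control 1, control 2 or knockdown 3 (adjusted p from 0.0616 to 0.0649), and the tefu call without control 2 (0.0790) or knockdown 3 (0.0680).

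The transcription factor gene p53 was measured by 2 probe sets, and neither passed between phases. Probe set 1625134_at read 10.88, 11.00, 11.23, 11.38 and 10.74 in G1 and 10.81, 10.79, 11.14, 11.13 and 10.76 in G2/M. It was lower in G2/M in 4 of 5 cultures, with a difference of -0.12 (95% interval -0.26 to 0.01; adjusted p = 0.194 in limma). The part of the transcript that each probe set reads was not analysed here. Probe set 1630028_at read 8.90, 9.14, 8.62, 8.63 and 8.89 in G1 and 8.59, 8.63, 8.77, 8.59 and 8.55 in G2/M. Its G2/M arrays spanned a narrow range and its G1 arrays a wide one, and the difference was -0.21 (95% interval -0.42 to -0.01; adjusted p = 0.149 in limma). Without control 3, the 1 culture in which it was higher in G2/M (0.14), it passed at -0.30 (adjusted p = 0.0398), and without control 3 and knockdown 2 it passed at -0.39 (0.0155).

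At the break end, the Ku genes moved opposite to the kinase genes. Irbp, the Ku70 gene, read 10.42, 10.95, 10.54, 10.99 and 10.32 in G1 and 9.98, 10.31, 9.83, 10.57 and 9.70 in G2/M. It fell in all 5 cultures by 0.42 to 0.71, although the phases overlapped, since the G2/M array of knockdown 2 was above the G1 arrays of control 1, control 3 and knockdown 3. The difference was -0.56 ± 0.06 (SE, n = 5; adjusted p = 0.000711 in limma). Its partner gene Ku80 read 10.05, 10.48, 10.33, 10.62 and 9.97 in G1 and 9.81, 9.88, 9.998, 10.24 and 9.57 in G2/M. It fell by 0.39 ± 0.06 (SE; adjusted p = 0.00333 in limma), in all 5 cultures.

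The gene mre11, the nuclease subunit of the competing complex, did not pass. It read 10.75, 10.71, 10.91, 11.06 and 10.57 in G1 and 10.98, 10.91, 10.97, 11.13 and 10.86 in G2/M. It was higher in G2/M in 5 of 5 cultures by 0.06 to 0.29, with a difference of 0.17 (95% interval 0.04 to 0.30; adjusted p = 0.0665 in limma). The smallest differences were again those of control 3 and knockdown 2, and without both it passed, at 0.24 (adjusted p = 0.0398). It also passed with array medians set to 0 (0.0434), with dim probe sets left out (0.0485) and with a trended, robust variance prior (0.0167).

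Dronc had the smallest p of all members. It read 10.35, 10.68, 10.54, 11.00 and 10.16 in G1 and 9.76, 10.17, 9.97, 10.29 and 9.61 in G2/M. The fall was close to equal in the 5 cultures, from 0.51 in control 2 to 0.71 in knockdown 2, while the phases overlapped, since G2/M of knockdown 2 and of control 2 lay above G1 of knockdown 3. The difference was -0.59 ± 0.05 (SE, n = 5; adjusted p = 0.000378 in limma), a 1.50-fold fall and the 95th smallest p of 18769.

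**Figure D2:**
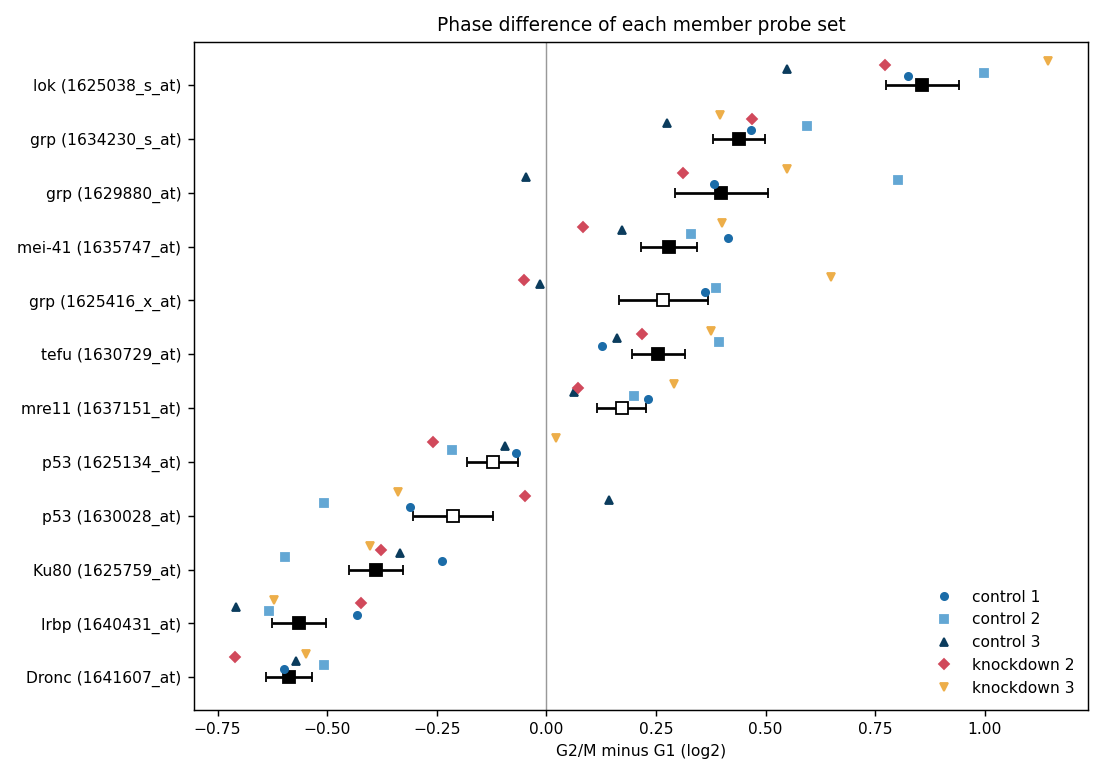
G2/M minus G1 (log2) for the 12 member probe sets, ordered by size. Squares are the limma estimate over 5 cultures with its standard error, filled where the adjusted p is under 0.05, and the small symbols above each are the 5 cultures. The estimates run from -0.59 for Dronc to 0.86 for lok, and control 3 gave the smallest difference for lok.

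Fitted to each label alone, with no array shared, the same 4 probe sets passed in both fits and in the same direction: lok, the s_at probe set of grp, Irbp and Dronc. Control cultures alone (n = 3) called 4 of 12, where 7.25% of all probe sets passed, and knockdown cultures alone (n = 2) also called 4 of 12, where 5.30% passed. Over all probe sets 3.74% passed in both. In control cultures lok rose by 0.79 ± 0.10 (SE) and in knockdown cultures by 0.96 ± 0.12 (SE). With 2 knockdown cultures, at 0.77 and 1.14 for lok, this SE rests largely on the spread of all probe sets. Dronc fell by 0.56 ± 0.07 (SE) and by 0.63 ± 0.11 (SE). For Irbp the estimates were -0.59 and -0.52, and for grp 0.44 and 0.43. Ku80 gave -0.39 in both and passed in neither (adjusted p = 0.0571 and 0.0651 in limma).

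Without the block of cultures, lok (adjusted p = 0.00215 in limma) and Dronc (0.0489) passed, as 2 of 12, where 9.03% of all probe sets did. The estimates are unchanged by the block, and the adjusted p of the others was 0.0781 (mei-41) to 0.727 (tefu). Without the cultures control 3 and knockdown 2, 11 of the 12 passed (7 higher and 4 lower in G2/M), all but p53 probe set 1625134_at. Of all 18769 probe sets 3664 passed in that fit, 2189 of them as higher. The estimates were then 0.99 for lok, 0.49 for the s_at probe set of grp, 0.38 for mei-41 and 0.30 for tefu, and -0.56, -0.41 and -0.55 for Irbp, Ku80 and Dronc. In those 2 cultures the G2/M markers also differed less between phases (CycB, above), and the part of this in the members' differences was not tested.

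The second comparison asked whether the 5 cultures differed from each other once phase was taken out. The ATM gene tefu differed most, being 2.25-fold lower in the lowest culture than in the highest. The Ku genes and Dronc were high in knockdown 2 and low in knockdown 3. Of the 12 probe sets 6 passed limma's F test over cultures (tefu, Irbp, Dronc, grp, Ku80 and p53, 1 probe set each), where 11.5% of all probe sets did. The median range over the culture means was 0.54 for the members and 0.24 for all probe sets, dim ones included. With dim probe sets (mean log2 under 5) left out, 6 of the 12 and 2352 of 14627 probe sets passed. Each culture is 1 sample with 2 arrays here, so the test says that cultures differ by more than their arrays do, and says nothing about a condition.

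For tefu the culture means, over both phases, were 10.55, 10.45 and 10.41 in control 1, control 2 and knockdown 3, and 9.38 and 9.44 in control 3 and knockdown 2. Within G1 the low pair reached 9.33 and the other 3 cultures began at 10.23, and within G2/M these values were 9.55 and 10.60. The pair is the same that read high for Slimp. The range was 1.17 (F = 75.4, adjusted p = 0.000191 in limma), the 91st smallest p of 18769, and Slimp itself had the smallest. Without control 3 and knockdown 2, the range of tefu was 0.13 (adjusted p = 0.678). In that fit 0 of 18769 probe sets passed in limma, with 2626 at an unadjusted p under 0.05.

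The s_at probe set of grp and the p53 probe set 1625134_at separated the same cultures, in opposite directions. The grp means were 11.13 and 11.09 in control 3 and knockdown 2 and 11.52 to 11.63 in the other 3 (range 0.54, adjusted p = 0.0122 in limma). The p53 means were 11.19 and 11.26 in those 2 cultures and 10.75 to 10.89 in the other 3 (range 0.51, adjusted p = 0.0218 in limma). Without both cultures these ranges were 0.11 and 0.15. The second p53 probe set did not follow: its culture means lay between 8.61 and 8.89, and its adjusted p was 0.669.

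Irbp, Ku80 and Dronc shared another order. In G1 all 3 genes ran, from high to low, knockdown 2, control 2, control 3, control 1, knockdown 3. In G2/M knockdown 2 was again highest and knockdown 3 lowest for each. How common this order is over all probe sets was not counted. The culture means of knockdown 2 and knockdown 3 were 10.78 and 10.01 for Irbp (range 0.77, adjusted p = 0.0046 in limma), 10.43 and 9.77 for Ku80 (0.67, 0.0153) and 10.64 and 9.89 for Dronc (0.75, 0.00358). These 2 cultures carry the same genotype label. Without control 3 and knockdown 2 the ranges were 0.62, 0.41 and 0.54, none past the threshold. Without knockdown 2 alone the calls of Ku80 (adjusted p = 0.106), p53 (0.0769) and grp (0.0640) were lost, without knockdown 3 that of Ku80 (0.0750), and without control 3 that of p53 (0.0541).

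Of the rest, lok had a range of 0.45 (adjusted p = 0.164 in limma), mre11 0.38 (0.108) and mei-41 0.33 (0.236). The other grp probe sets had ranges of 0.70 (1629880_at, 0.0650) and 0.54 (1625416_x_at, 0.104). Lowest and highest for mre11 were knockdown 3 (10.72) and knockdown 2 (11.09), as for the Ku genes. For lok the lowest means were those of control 3 (8.84) and knockdown 2 (9.02). Unlike tefu, lok had this pair lowest in G2/M only, since in G1 knockdown 3 (8.59) read below knockdown 2 (8.63).

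**Figure D3:**
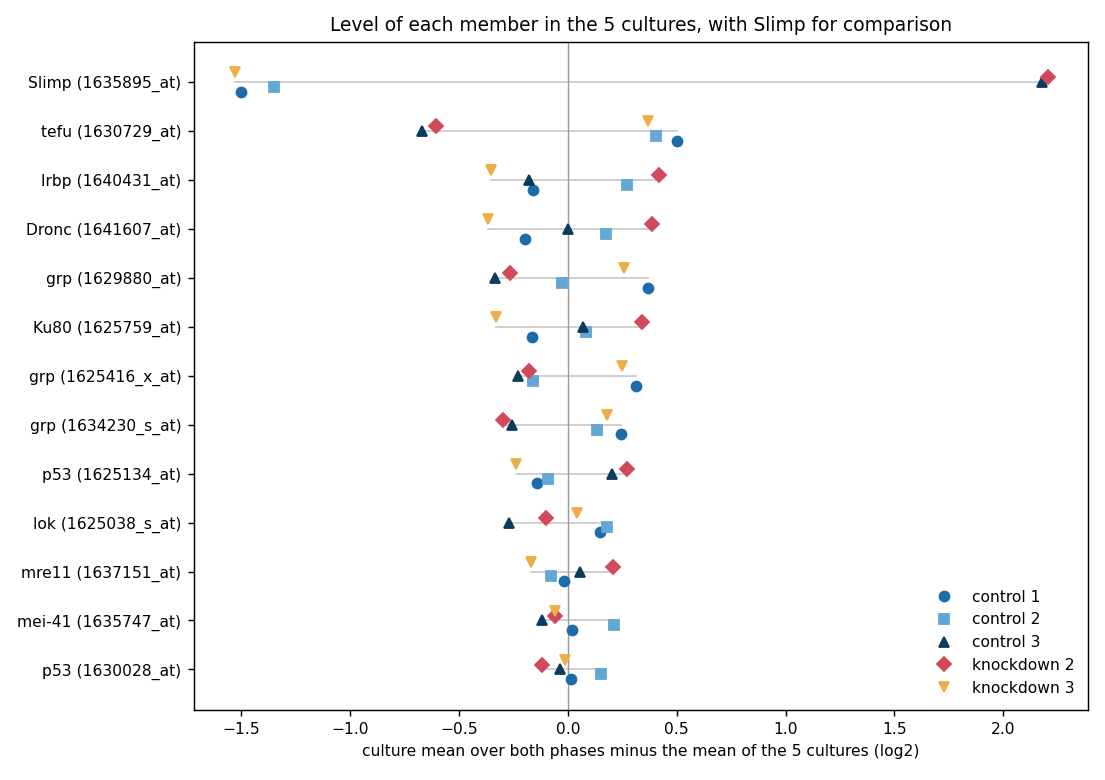
Mean of the G1 and G2/M arrays of each culture, relative to the mean of the 5 cultures (log2), for the 12 member probe sets and for Slimp, ordered by range. Each symbol is 1 culture. For tefu, control 3 and knockdown 2 lie apart on the low side, and for Slimp on the high side, while Irbp, Ku80 and Dronc run from knockdown 3 (lowest) to knockdown 2 (highest).

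The third comparison was the one the study's labels name, SLIMP knockdown against control in each phase. No member passed the test, which compares names of libraries whose Slimp signal does not follow them. In G1 the differences (libraries labelled knockdown minus control) ran from -0.23 for tefu to 0.06 for Dronc, and in G2/M from -0.16 for tefu to 0.09 for Irbp. In limma 0 of 12 probe sets passed in either phase, and 0% of all probe sets did. At an unadjusted p under 0.05 there were 482 of all probe sets and 0 members in G1, and 164 and 0 in G2/M. For tefu in G1 the libraries labelled control averaged 10.01 ± 0.63 (SD, n = 3) and those labelled knockdown 9.78 ± 0.63 (SD, n = 2). Each label thus holds tefu values near 9.3 and above 10.2, and the 95% interval of the difference was -1.36 to 0.90. For p53 probe set 1630028_at, which had the smallest p of the members in G1, the difference was -0.13 (interval -0.46 to 0.20), and for mei-41, smallest in G2/M, it was -0.13 (-0.43 to 0.18). Without the libraries of control 3 and knockdown 2, 1 knockdown library stands against 2 control libraries in each phase and is assumed to vary like the others. The members then lay between -0.36 (Irbp) and 0.11 (grp) in G1 and between -0.45 (Irbp) and 0.31 (grp) in G2/M, and 0 probe sets passed in limma, with 1251 and 387 of all probe sets and 0 members at an unadjusted p under 0.05.

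Between the labels, the phase difference itself was compared through their interaction. The members' values lay between -0.07 (Dronc) and 0.17 (lok), with 0 of 12 and 0% of all probe sets past the threshold in limma. At an unadjusted p under 0.05 there were 333 of all probe sets and 0 members. With culture as a block, 0 probe sets passed as well. For lok the value was 0.17 ± 0.27 (SE), and it was -0.04 without the G2/M library labelled control 3 and 0.23 without all libraries of control 3 and knockdown 2.

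Other genes of the same pathways, taken from lists chosen for their known roles, showed where the members stand. Partners of Ku and of Mre11 came first. DNAlig4, the gene of the ligase that seals ends held by Ku, read 8.28, 8.89, 8.37, 8.91 and 7.96 in G1 and 8.03, 8.47, 8.06, 8.55 and 7.78 in G2/M. It fell in G2/M by 0.31 ± 0.05 (SE, n = 5; adjusted p = 0.00556 in limma). It differed between cultures with a range of 0.86 (adjusted p = 0.00148), again with knockdown 2 highest, control 2 next and knockdown 3 lowest. Neither gene for a partner of Mre11 passed as higher in G2/M: nbs fell by 0.28 ± 0.06 (SE; adjusted p = 0.0121), and rad50 gave -0.07 (adjusted p = 0.475). Between cultures rad50 had a range of 0.58 (adjusted p = 0.0208), from 9.16 in knockdown 3 to 9.73 in knockdown 2. Without control 3 and knockdown 2 the fall of DNAlig4 was 0.28 (adjusted p = 0.0420 in limma) and its range 0.81 (0.205), and the call of nbs was lost (-0.24, 0.0729).

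Of 10 measured checkpoint genes outside the members, 2 rose and 2 fell in G2/M and 6 did not pass (median -0.07). Over all probe sets 10.3% rose and 9.00% fell. The gene mus101, which encodes TopBP1, an activator of ATR, rose by 0.47 (adjusted p = 0.00946 in limma), and mu2, which encodes a break-binding adaptor like human MDC1, rose by 0.31 (0.0102). Without control 3 and knockdown 2, 3 of the 10 rose and 0 fell, where 3664 of all 18769 probe sets passed, 2189 as higher. The 3 were mus101 at 0.66, mu2 at 0.37 and Rad9 at 0.35. Of 20 measured genes of break repair, 7 rose and 1, DNAlig4, fell (median 0.18). Fancd2, of the pathway that repairs crosslinked strands, rose by 0.79 (0.000914), the Bloom helicase gene Blm by 0.49 (0.00343) and Gen, which encodes a junction nuclease, by 0.39 (0.00374). Without those 2 cultures, 9 rose and 1 fell, and the rises were 0.96 for Fancd2, 0.64 for Blm and 0.49 for Gen. Between cultures 2 of the 20 passed, where 11.5% of all probe sets did: DNAlig4 (above) and WRNexo (range 0.58, adjusted p = 0.0241 in limma). Like tefu, WRNexo had its lowest culture means in control 3 (9.02) and knockdown 2 (8.91).

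Of 18 measured apoptosis genes, 3 rose and 1 fell between phases, and 14 did not pass (median 0.01). Over all probe sets 10.3% rose and 9.00% fell. The Bcl-2 family genes Buffy and Debcl rose by 0.33 (adjusted p = 0.0184 in limma) and 0.20 (0.0214), and Dcp-1, an effector caspase gene, fell by 0.21 (0.0329). These calls rest on all 5 cultures: without control 3 and knockdown 2, Buffy gave 0.37 (0.0697), Debcl 0.18 (0.0782) and Dcp-1 -0.14 (0.162). In that fit 1 of the 18 rose (Corp, by 0.29, 0.0275) and 0 fell. Of all 18769 probe sets 3664 passed in it, 2189 as higher. Over all 5 cultures Dark, whose product activates Dronc, gave -0.14 (0.201). Of the death genes that stand beside rpr on the chromosome, skl and grim had mean signals of 3.51 and 3.86, near the lowest values on the arrays (3.01), and differed between phases by -0.01 and 0.00. In 4 genes reported as p53 targets elsewhere, 1 rose (egr, the TNF ligand gene, by 0.24, adjusted p = 0.0404 in limma) and 1 fell (RnrL, a ribonucleotide reductase gene, by 0.32, 0.0153). This list is not separate from the apoptosis genes, since egr, Corp and skl were also counted among those 18. Without those 2 cultures, Corp rose, while egr gave 0.12 (0.205) and RnrL -0.21 (0.0805).

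Between cultures 5 of the 18 apoptosis genes passed, where 11.5% of all probe sets did. The anti-apoptotic gene BI-1 had culture means of 11.99 and 12.07 in control 3 and knockdown 2 and 11.28 to 11.38 in the other 3 (range 0.79, adjusted p = 0.00341 in limma). The TNF receptor gene wgn went the other way, at 10.07 and 10.25 in those 2 cultures and 10.71 to 10.82 in the other 3 (0.75, 0.00466), and so did its ligand gene egr, at 11.72 and 11.70 against 12.23 to 12.30 (0.61, 0.00921). Dark (range 0.62, adjusted p = 0.0393) was highest in knockdown 2 and lowest in knockdown 3, as was Dronc. Buffy (0.69, 0.0208) was the remaining one, and like tefu it was lowest in control 3 (6.38) and knockdown 2 (6.49). Without these 2 cultures, 0 genes of the checkpoint, repair, apoptosis and p53 target lists passed between cultures in limma, as 0 of all probe sets did, and the ranges of BI-1, wgn and egr were 0.10, 0.11 and 0.07.

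**Figure D4:**
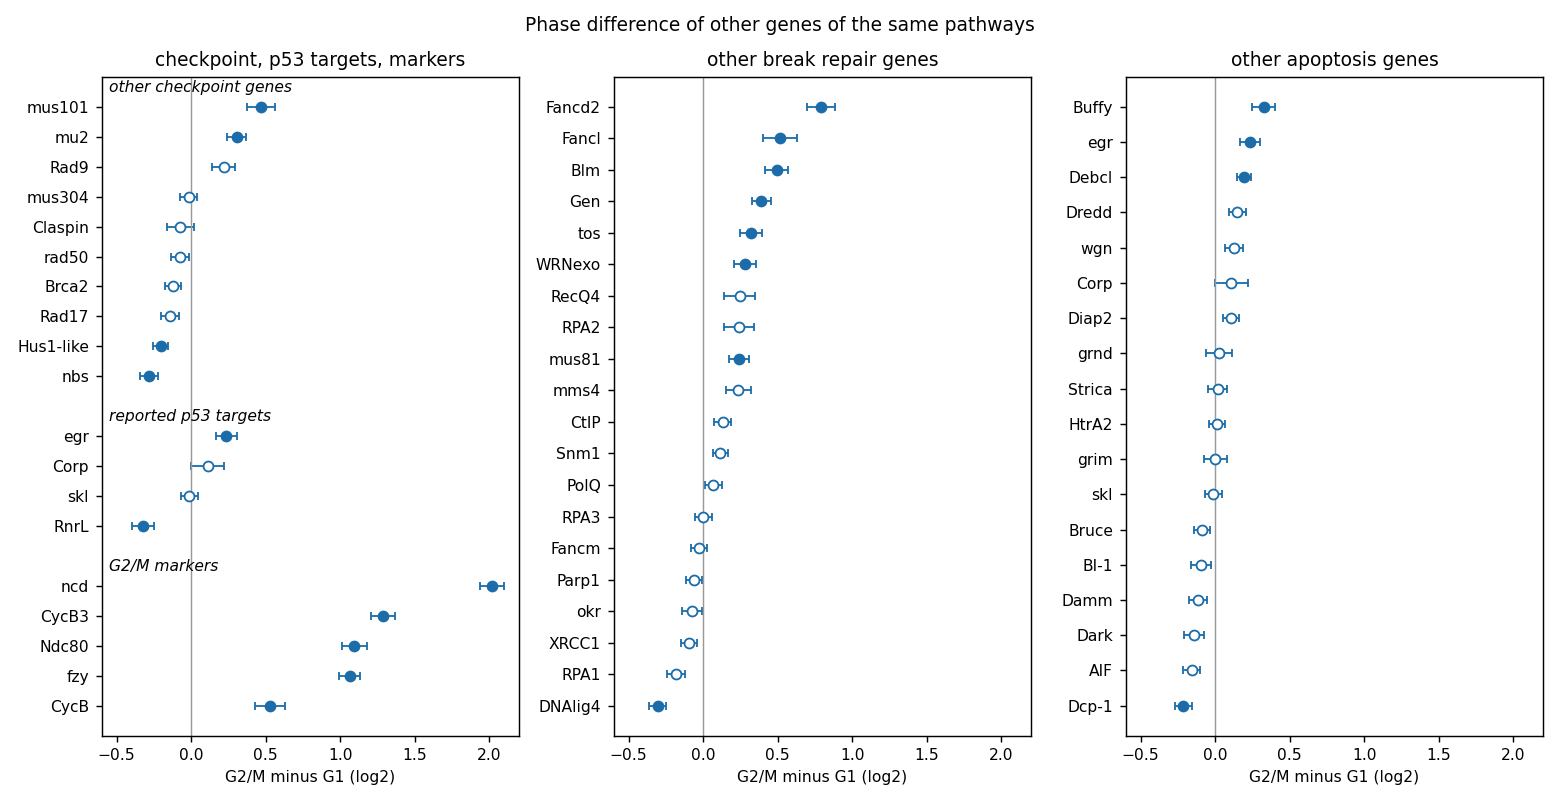
G2/M minus G1 (log2) with its standard error over 5 cultures for genes of the same pathways that are not members, and for G2/M markers. Filled circles have an adjusted p under 0.05. Fancd2 rose most among repair genes (0.79), DNAlig4 fell among them (-0.31), and the G2/M markers rose by 0.53 (CycB) to 2.02 (ncd).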

How the data were processed

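The authors deposited 1 log2 value per probe set and array, and the submitters' processing notes name RMA, a method of background correction, quantile normalization and summary of probes. Its version, and any later step, is not given in the sources used here. From 18952 probe sets 183 array controls were left out, with no filter on dim signal and no further scaling. Genes were named through the platform annotation, with symbols updated through RefSeq Release 6 gene identifiers. No sequence was used. Arrays give no read depth, and their number (10) limits the precision.

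Phase was tested with limma 3.58.1 (R 4.3.3) in a model of culture and phase over all 18769 probe sets (residual df 4), and cultures by the F test in that model. Labels and their interaction with phase were tested in a model with 1 coefficient per group and no block (residual df 6). P-values were adjusted by Benjamini-Hochberg at 0.05. The fits were tested on simulated data.

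Cultures were paired by label and number. Deviations from group means correlated at 0.555, 0.514 and 0.685 within control cultures and 0.655 within knockdown cultures (equal by construction), all over the bound of 0.1. Of 20 pairings of different cultures 8 were also over it (up to 0.517, G1 of knockdown 2 with G2/M of control 3), and each of the 10 arrays correlated best with the other phase of its own culture.

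All members were named with every probe set. Slimp was named to check the labels, and ncd, CycB and CycB3 to check the sort. Other genes came from pathway lists, with up to 3 per list with the smallest p past the threshold in the phase and in the culture test. Outside that rule, Dark, Corp, Rad9, the culture value of Buffy, skl, grim, the phase values of DNAlig4 and rad50 and the marker genes of other cell types were chosen after values were seen. A gene with several probe sets was represented by the one with the highest mean. The members and lists were chosen with earlier results of these data known. The alternatives were other scalings, a filter on dim probe sets (mean log2 of 5), another variance prior, the block, and leaving out cultures or libraries.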

Additional observations from a re-analysis of the deposited data

How the results depend on the processing

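Over 13 alternatives for the phase difference, lok and Dronc passed in every one, and the s_at probe set of grp and Irbp in all but the fit with no replicate block. No member's phase difference changed sign. The count of 8 member probe sets fell to 2 with no replicate block, to 4 with control cultures only and to 4 with knockdown cultures only, and was 5 to 9 when 1 culture was left out. Over all probe sets these counts were 3623, 1695, 1360, 995 and 2189 to 3414. Between cultures, the count of 6 fell to 0 without control 3 and knockdown 2, an alternative added after seeing the data, and was 3 to 7 with 1 culture left out. With the trended, robust variance prior the member count was 9. Over all probe sets the counts were 2165, 0 and 1188 to 1801, and 3327 with the trended, robust variance prior. Fewer cultures leave fewer residual degrees of freedom, and the cause of the lost calls was not tested further. Label differences and the interaction called 0 probe sets under every alternative run, the replicate block included, with 91 (G2/M, dim probe sets left out) to 1251 (G1, without both cultures) at an unadjusted p under 0.05. The interaction for lok lay between -0.037 and 0.330 when 1 library was left out. With 2 knockdown cultures that differ in Slimp signal, the labels resolve little. The signal of mei-41 lies close to the array medians, and its height over background was not analysed.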

Other observations

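Genes of the marker lists, chosen here after their values were seen, also differed between cultures. Of 10 haemocyte markers 3 passed, where 11.5% of all probe sets did. The peroxidasin gene Pxn had culture means of 11.40 and 11.45 in control 3 and knockdown 2 and 11.99 to 12.22 in the other 3 cultures (range 0.82, adjusted p = 0.00517 in limma). The collagen gene vkg read 10.78 and 11.01 in those 2 cultures and 11.34 to 11.55 in the other 3 (0.78, 0.00555), and the scavenger receptor gene NimC1 had a range of 0.44 (0.0485). The other 7 did not pass. Of these, ush, Col4a1 and He had their lowest means in the same 2 cultures, while crq was highest in control 3 (9.41) and knockdown 2 (9.50), and Hml was highest in knockdown 2 (11.61) and lowest in control 3 (11.26). The neuronal marker brp, 1 of 10 markers of other cell types that passed, read 8.64 and 8.70 in those 2 cultures and 8.96 to 9.05 in the other 3 (0.41, 0.0265). Without control 3 and knockdown 2, 0 genes of either list passed in limma, as 0 of all probe sets did, with 2626 of all at an unadjusted p under 0.05.

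Of 6 measured genes of the G1/S transition and DNA synthesis, 2 rose in G2/M, 2 fell and 2 did not pass. Over all probe sets 10.3% rose and 9.00% fell. The helicase subunit genes Mcm5 and Mcm2 rose by 0.62 ± 0.11 (SE, n = 5; adjusted p = 0.00555 in limma) and 0.44 (0.0479). The sliding clamp gene PCNA fell by 0.28 ± 0.06 (SE; 0.0143), as did RnrL (above). Without control 3 and knockdown 2, 3 of the 6 rose and 0 fell, where 3664 of all 18769 probe sets passed, 2189 as higher. The 3 were Mcm5 (0.84, adjusted p = 0.0060 in limma), Mcm2 (0.71, 0.0077) and dup (0.47, 0.0340). PCNA (-0.19, 0.0917) and RnrL did not pass.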
